A study of Mus musculus with 18 samples.

Results

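Interferon-stimulated genes are genes whose transcription is switched on by interferons, and 38 of them were followed in mouse liver across 3 diets. They were taken as a named list of antiviral effectors, nucleic acid sensors, transcription factors and interferon-inducible GTPases. Each gene was read from the array probe set paired with its symbol and no other, and from the brightest such probe set where there were several. A probe set was found for 36 of the 38 listed genes, out of 18193 genes with such a probe set on the array. Isg15, the ubiquitin-like modifier of the response, was represented only by a probe set that also names another gene, and Ifi44, a cytoplasmic interferon-induced protein, by none, so neither is given values here. Of the 36 genes, 35 lay above the brightness limit for testing (log2 4.564), among 13645 genes tested in all. The exception was Mx2, a GTPase related to the antiviral Mx1, which averaged a log2 level of 4.26 ± 0.06 (SD, n = 6) with quercetin, 4.50 ± 0.27 (SD, n = 6) on the Western-style diet and 4.42 ± 0.19 (SD, n = 5) on the control diet. It is described no further.

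Cells release type I and type III interferons when sensors such as RIG-I, encoded by Ddx58, or Tlr3 detect foreign nucleic acid, while type II interferon comes mainly from lymphocytes. Receptor-bound JAK kinases then phosphorylate STAT proteins. Stat2 and Irf9 take part in a complex that binds the interferon-stimulated response element (ISRE), and the gamma-activated sequence (GAS) is a further element of interferon-responsive promoters. In liver, hepatocytes, Kupffer cells and the other resident cells all respond to interferon, and many of these genes have a basal level without infection.

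The livers came from male C57BL/6J mice received at 5 weeks of age, kept on stock diet for 1 week and then fed for 20 weeks. Each Affymetrix Mouse Genome array was taken as 1 mouse, apart from control arrays 4 and 5, described below. The first group received a Western-style diet with 0.05% quercetin, a plant flavonol (6 arrays). The second received the Western-style diet alone, with 39.9% of energy from fat, 34% from sucrose and 0.15% cholesterol (6 arrays). The third received AIN93G, a purified control diet (6 arrays). No allele or further agent distinguished the groups, and the mice were housed 3 to a cage without the cage being given, so mice within a group may not be fully independent. The titles number the mice of each group from 1 to 6, and results are also given for numbers 1-3 and 4-6 apart, although the labels do not state what that split stands for.

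Levels are log2(intensity + 16) after quantile normalization, so a fold change understates the change of a dim gene, and levels of different genes are not comparable. As deposited linear intensities, control arrays 4 and 5 were almost identical (Pearson's r = 0.999669 over all probe sets, against 0.995938 for the next closest pair). On the normalized log2 scale a tested member differed by up to 0.36 between them. The 2 arrays were averaged into 1 sample, which gave n = 5 for the control group. A gene was called changed when the Benjamini-Hochberg adjusted p of limma's moderated test, taken over all 13645 genes, was under 0.05. All 10 hepatocyte markers examined were above the brightness limit. In whole liver, fewer cells of a type and less RNA per cell cannot be told apart.

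The promoters of the listed genes were examined first, because the ISRE is the element through which most of them are known to respond. RefSeq promoter windows (GRCm38.p6; 250 bases before to 50 after the transcription start, 300 in all) were matched by symbol for 28 of the 38 genes, with 32 windows. The ISRE core GAAA, then NN, then GAAA, searched on both strands, occurred in the windows of 17 of these 28 genes (60.7%), against 3.99% of the 27025 genes in the table. Counted by window, it was in 56.2% of the members' windows and in 3.44% of all 32851 windows of that length. The GAS motif TTCNNNGAA occurred in 6 of the 28 genes (21.4%), against 9.55% of all genes.

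The following windows, written 5′ to 3′ along the gene with motif matches in capitals, belong to genes on which the diet results below turn. Trim30a (minus strand, chr7:104465144-104465443) and Oas3 (minus strand, chr5:120777610-120777909) have 1 ISRE core each. A second window of Trim30a (chr7:104446076-104446375), not printed, has 1 ISRE core at positions 3 to 12 from its own start. Oas1a (minus strand, chr5:120907476-120907775) has 2 ISRE cores that overlap in 1 stretch, and a GAS match before them. Igtp (plus strand, chr11:58199306-58199605) has a GAS match directly before its ISRE core. Ifit1 (plus strand, chr19:34640639-34640938) has 2 separate ISRE cores. Oasl2 (plus strand, chr5:114896684-114896983) has neither motif in these 300 bases.
Trim30a: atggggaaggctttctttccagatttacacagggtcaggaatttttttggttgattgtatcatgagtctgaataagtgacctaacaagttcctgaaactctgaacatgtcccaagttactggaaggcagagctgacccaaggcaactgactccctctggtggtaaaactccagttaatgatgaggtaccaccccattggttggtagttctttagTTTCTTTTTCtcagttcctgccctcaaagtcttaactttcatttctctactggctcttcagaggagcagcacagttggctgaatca
Oas3: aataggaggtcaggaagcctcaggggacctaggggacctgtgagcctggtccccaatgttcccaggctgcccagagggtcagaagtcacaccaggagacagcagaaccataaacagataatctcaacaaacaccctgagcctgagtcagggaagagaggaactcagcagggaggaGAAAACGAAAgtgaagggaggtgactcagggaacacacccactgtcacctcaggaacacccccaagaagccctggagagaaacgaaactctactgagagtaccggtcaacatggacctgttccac
Oas1a: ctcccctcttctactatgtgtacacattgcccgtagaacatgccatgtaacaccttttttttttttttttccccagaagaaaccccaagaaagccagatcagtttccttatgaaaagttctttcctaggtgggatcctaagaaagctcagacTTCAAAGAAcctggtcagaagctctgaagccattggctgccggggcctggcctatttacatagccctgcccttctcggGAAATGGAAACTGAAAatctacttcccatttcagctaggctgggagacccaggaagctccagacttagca
Igtp: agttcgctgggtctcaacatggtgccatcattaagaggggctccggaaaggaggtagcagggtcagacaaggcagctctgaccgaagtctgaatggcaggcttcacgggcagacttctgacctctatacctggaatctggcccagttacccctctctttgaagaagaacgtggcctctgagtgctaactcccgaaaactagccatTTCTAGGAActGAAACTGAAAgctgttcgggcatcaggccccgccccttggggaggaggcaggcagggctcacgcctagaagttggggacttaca
Ifit1: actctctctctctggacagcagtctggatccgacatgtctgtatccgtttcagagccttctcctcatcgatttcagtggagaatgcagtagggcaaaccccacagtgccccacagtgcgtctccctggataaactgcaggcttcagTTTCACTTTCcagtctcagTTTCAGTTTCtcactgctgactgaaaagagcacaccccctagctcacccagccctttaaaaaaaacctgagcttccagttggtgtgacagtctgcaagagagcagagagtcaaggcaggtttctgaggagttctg
Oasl2: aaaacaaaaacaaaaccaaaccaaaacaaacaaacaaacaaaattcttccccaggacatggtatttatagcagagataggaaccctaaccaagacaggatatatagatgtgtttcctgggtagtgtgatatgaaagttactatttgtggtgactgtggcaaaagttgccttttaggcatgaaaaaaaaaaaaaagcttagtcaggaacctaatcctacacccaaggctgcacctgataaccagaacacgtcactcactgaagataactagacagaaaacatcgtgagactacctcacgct

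**Figure D1:**
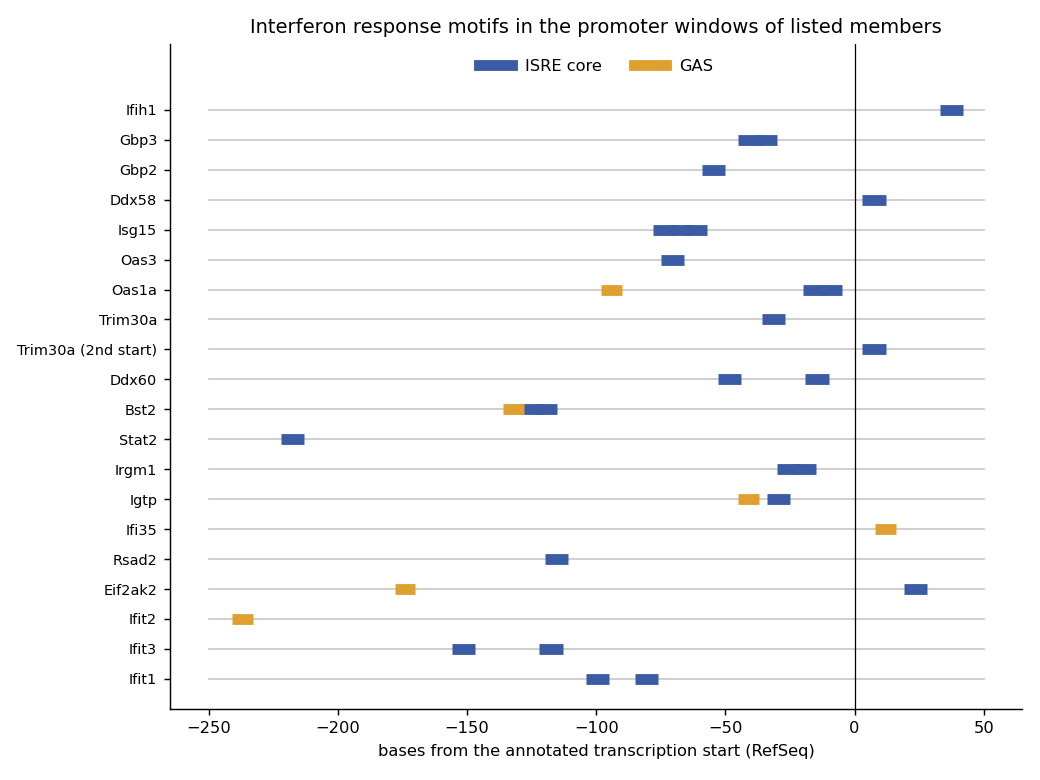
Positions of ISRE core and GAS matches in the promoter windows of listed genes, plotted as distance from the annotated transcription start in bases (0 on the horizontal axis). Each window with a match has 1 row, so Trim30a, with 2 such windows, has 2 rows. Most matches lie before the start, as in Oas3 from -75 to -66 and in Igtp from -45 to -37 (GAS) and -34 to -25 (ISRE core).

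Genes that rose on the Western-style diet and genes that did not both had the ISRE core. It was present in 4 of the 8 genes with a window that rose, and in 12 of the 18 tested genes with a window that did not. Igtp, which fell, is among these 12. A match shows only that these letters are present in the window.

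The first comparison, of Western with control livers, asks how these genes responded to the diet itself. A part of the group rose: 9 members were higher on the Western-style diet and 1 was lower, which together is 28.6% of the 35 tested, against 8.65% of all genes tested (5.49% higher, 3.16% lower). The increases were led by Oasl2 and Oas3 of the oligoadenylate synthetase family and by Trim30a, a ubiquitin ligase of the TRIM family. The transcription factors and the RNA and DNA sensors of the response had no called change. Over all 35 members the median log2 difference was 0.12, against -0.015 over all genes, and 25 members (71.4%, against 47% of all genes) lay above 0. Of the 35, 5 had every Western mouse above every control mouse (14.3%, against 4.17% of all genes).

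The oligoadenylate synthetase family makes short oligoadenylates that activate RNase L, which then degrades RNA. Oasl2, a family member with ubiquitin-like domains, had log2 levels of 6.39, 6.97 and 7.05 (lowest, median and highest of 6) in Western livers, against 5.83, 5.83, 5.90, 6.14 and 6.21 in control livers. The groups did not overlap, and the level was 1.88-fold higher on the Western-style diet (log2 change 0.91 ± 0.14, SE; adjusted p = 0.000627, limma). Oas3 had 5.11, 5.66 and 5.71 in Western livers, against 4.47, 4.52, 4.85, 4.89 and 5.24 in control livers. It was 1.66-fold higher (0.73 ± 0.15, SE; adjusted p = 0.00657, limma), and the lowest Western mouse lay below the highest control mouse. Oas1a, a small catalytic synthetase, had 7.20, 7.33 and 7.40 in Western livers, against 6.68, 6.69, 6.76, 6.99 and 7.19 in control livers. Its groups were separated by a narrow margin, and it was 1.37-fold higher (adjusted p = 0.0138, limma).

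The other family members did not pass. Oas2, a synthetase whose gene lies next to Oas3 in the annotation, had a log2 difference of 0.44 (adjusted p = 0.109, limma), and Oasl1, which lies next to Oasl2 and is known in mice to hold back Irf7 translation, had a median of 7.16 in Western livers and 7.14 in control livers. In all, 3 of the 5 tested family members rose and none fell.

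Among the antiviral effectors, Trim30a is known in mice to damp signalling from Toll-like receptors. It had 7.24, 7.63 and 7.84 in Western livers, against 6.78, 6.86, 6.93, 7.02 and 7.16 in control livers. All Western mice lay above all control mice, with a 1.53-fold higher level (0.61 ± 0.12, SE; adjusted p = 0.00329, limma), and its other probe set gave a log2 difference of 0.60. Bst2, or tetherin, which holds budding virus particles at the cell surface, had 9.59, 9.68 and 9.99 in Western livers, against 9.27, 9.35, 9.38, 9.40 and 9.67 in control livers. It was 1.24-fold higher (adjusted p = 0.0349, limma), and 1 control mouse lay within the Western range. Leaving out control mouse 1, 2, 4-5 or 6 or Western mouse 1, 3, 5 or 6 ended the call (adjusted p = 0.0505 to 0.0910, limma). Mx1, a dynamin-like GTPase that blocks influenza virus and is defective in the C57BL/6 strain, had 5.19, 5.38 and 5.66 in Western livers, against 4.95, 5.09, 5.12, 5.14 and 5.25 in control livers. It was 1.25-fold higher (adjusted p = 0.0382, limma) with a small overlap, and leaving out control mouse 1, 3, 4-5 or 6 or Western mouse 1, 3, 4 or 6 ended the call (adjusted p = 0.0508 to 0.0988, limma). Rtp4, a receptor transport protein, did not pass, with medians of 8.38 in Western livers and 8.30 in control livers. Rsad2 (viperin), a radical enzyme that makes a chain-terminating nucleotide, and its neighbour Cmpk2, a mitochondrial nucleotide kinase, had log2 differences of -0.05 and -0.04.

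The IFIT proteins bind viral RNA through tetratricopeptide repeats. Ifit2 had 6.07, 6.51 and 6.66 in Western livers, against 5.54, 5.60, 5.85, 6.00 and 6.13 in control livers, and was 1.52-fold higher (0.60 ± 0.18, SE; adjusted p = 0.0407, limma) with 1 overlapping pair of mice. Leaving out control mouse 1, 2, 3 or 6 or Western mouse 1, 3, 4 or 5 ended the call (adjusted p = 0.0526 to 0.103, limma). Ifit3, the adjacent gene, had a log2 difference of 0.31 (adjusted p = 0.133, limma). Ifit1, which recognises RNA without a methylated cap, had 6.29, 6.92 and 7.37 in Western livers, against 6.59, 6.79, 7.11, 7.22 and 7.42 in control livers, so the groups overlapped throughout.

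A pair of other members also rose. Lgals3bp, a secreted glycoprotein that binds galectins, had 9.34, 9.76 and 9.87 in Western livers, against 9.09, 9.11, 9.20, 9.23 and 9.30 in control livers, and was 1.44-fold higher (0.53 ± 0.13, SE; adjusted p = 0.0168, limma) without overlap. Xaf1, a partner of the apoptosis inhibitor XIAP, had 7.30, 7.44 and 7.67 in Western livers, against 6.53, 7.03, 7.09, 7.12 and 7.27 in control livers, and was 1.37-fold higher (adjusted p = 0.0127, limma). The groups of Xaf1 stood apart by little, and its second, dimmer probe set gave a log2 difference of -0.02. Ifi35 and Ifi27, interferon-induced genes of the same set, had no called change.

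The member that fell was Igtp, an immunity-related GTPase induced mainly by interferon-gamma that acts on the vacuoles of intracellular pathogens. It had 8.22, 8.41 and 8.79 in Western livers, against 8.73, 8.74, 8.89, 9.01 and 9.17 in control livers. Only the highest Western mouse reached into the control range, and the level was 1.40-fold lower (log2 change -0.48 ± 0.10, SE; adjusted p = 0.00659, limma). The call did not hold on unscaled values (log2 -0.21, adjusted p = 0.155, limma) and with array medians centred (-0.36, adjusted p = 0.0606, limma), with the sign kept. Irgm1, a related GTPase that acts in autophagy, and the guanylate-binding proteins Gbp2 and Gbp3, which attack pathogen vacuoles, did not pass.

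The sensors and regulators had no called change by the brightest probe sets. Irf7, the factor that amplifies type I interferon production, had a median level of 8.54 in Western livers and 8.31 in control livers, with a control range of 7.80 to 8.68. Stat2 and Irf9, both parts of the complex that binds the ISRE, had Western medians of 7.22 and 7.44, against control medians of 7.27 and 7.42. Ddx58 and Ifih1, sensors of viral double-stranded RNA, had medians of 7.73 and 8.10 in Western livers, against 7.64 and 8.10 in control livers. Usp18, which removes Isg15 from proteins and shuts off the type I receptor, had a median of 7.52 in Western livers and 7.43 in control livers. Eif2ak2, the RNA-activated kinase PKR that stops translation, had a log2 difference of 0.27 (adjusted p = 0.111, limma). Dhx58, a relative of RIG-I without its signalling domain, had one of 0.22 (adjusted p = 0.213, limma). The other sensors, Ddx60, a helicase linked to RIG-I, and Zbp1, which binds Z-form nucleic acid, overlapped between the groups. So did the ADP-ribosyltransferase genes Parp9, Parp12 and Parp14, of which Parp9 had a median of 8.87 in Western livers and 9.02 in control livers. Further probe sets, not dim but not tested, gave log2 differences of 0.43 for Zbp1, 0.37 for Parp14, and 0.32 and 0.19 for Dhx58. Those for Ddx58 were 0.04 and -0.14, for Eif2ak2 0.23 and 0.04, for Ddx60 0.11 and for Stat2 -0.03.

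**Figure D2:**
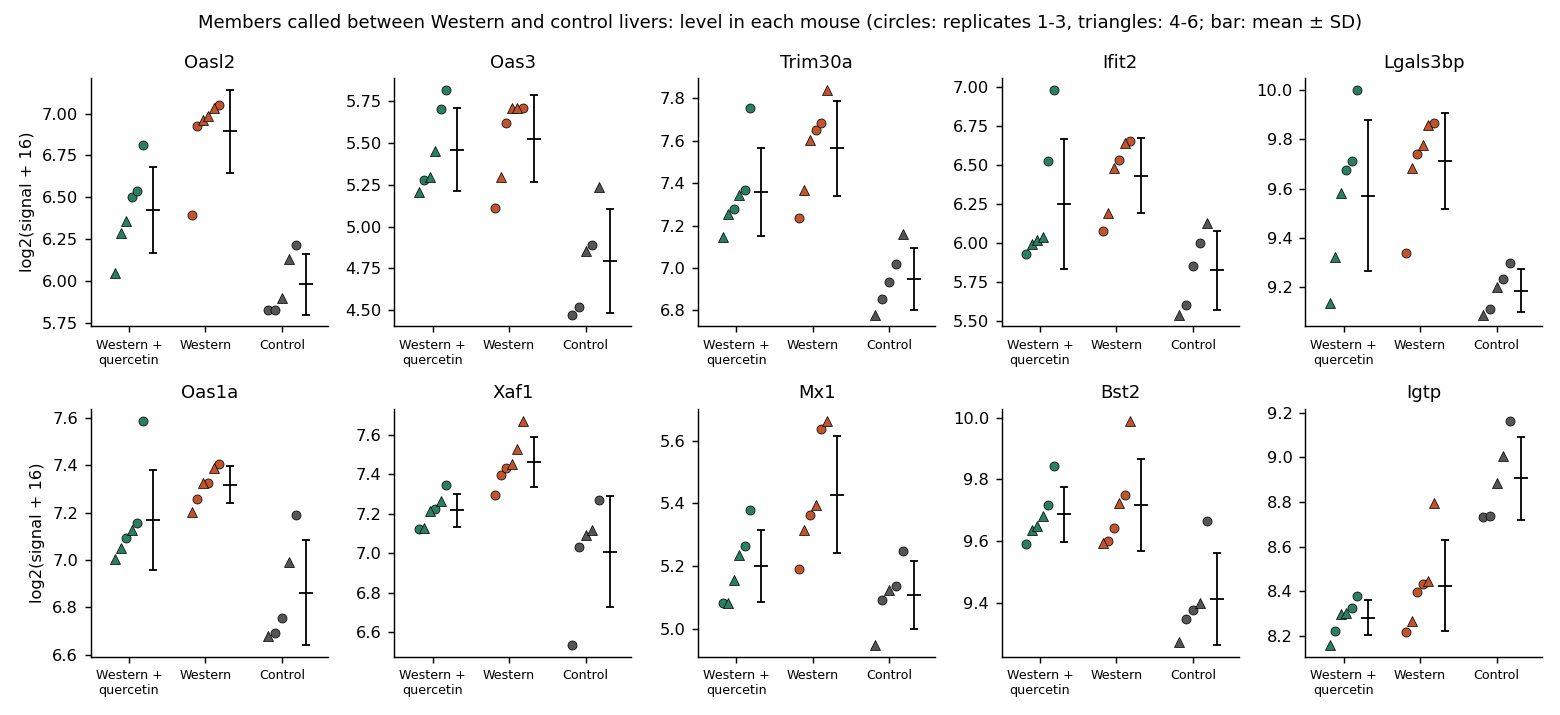
Log2 level of the 10 members called between Western and control livers, with 1 point per mouse (circles for title numbers 1-3, triangles for 4-6) and bars at the group mean ± SD, for the Western-style diet with quercetin, the Western-style diet and the control diet from left to right. Oasl2 in Western livers sits between 6.39 and 7.05, above all control livers, while Igtp in control livers sits between 8.73 and 9.17, above all livers of mice given quercetin.

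The number of calls differed with the scaling and with a covariate for RNA integrity. Without any scaling between arrays all genes were shifted upward, with a median of 0.22, and 16 members were called, 16 higher and none lower. With array medians centred (shift of all genes 0.068), 12 members were called, 12 higher and none lower. Calls over all genes numbered 3725 without scaling and 1284 with array medians centred, against 1180 with quantile normalization. The log2 ratio of the 3′ to the 5′ actin control probe sets, a sign of RNA integrity, was 0.54 ± 0.11 (SD, n = 6) in Western livers and 0.69 ± 0.06 (SD, n = 5) in control livers. In a fit with that ratio as a covariate, added after the data were seen, 1 member kept its call, Oasl2 (adjusted p = 0.0238, limma), against 10 without it. In that fit the median difference over the tested members, called or not, was 0.16, with 6 members below 0. Without the covariate the median was 0.12, with 10 members below 0. Calls over all genes numbered 223 with the covariate and 1180 without it.

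Markers of other liver cells differed between the same groups. Of 19 macrophage and Kupffer cell markers, 10 rose on the Western-style diet with a median log2 difference of 0.68, and their summed intensity was 8086 to 14630 in Western livers, against 5303 to 6801 in control livers. Of 8 stellate cell markers, 5 rose (median 0.66), with sums of 2227 to 3149 in Western livers and 1725 to 1887 in control livers. Of all genes tested, 5.49% were called higher. The summed intensity of 7 endothelial cell markers was 1508 to 1835 in Western livers and 1398 to 1617 in control livers. For 4 cholangiocyte markers it was 40 to 83 in Western livers and 23 to 60 in control livers. Markers of T cells, NK cells, plasmacytoid dendritic cells, B cells and neutrophils had no called change, and 3 of 6 T cell and 2 of 5 NK cell markers were dim. The part of these cells, and of RNA integrity, in the interferon-stimulated genes was not tested.

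Quercetin was compared within the Western-style diet to describe what it added to that diet. No member passed the test, and none of the 13645 genes did (0%). All 35 members nevertheless had a lower mean with quercetin than on the Western-style diet alone, where 52.3% of all genes did, with a median log2 difference of -0.15 against -0.0053 over all genes. The differences ran from -0.47 for Oasl2 to -0.02, and 7 members (20%, against 1.41% of all genes) were lower at an unadjusted p under 0.05. These were Oasl2, Rtp4, Ifit3, Mx1, Ifit1, Xaf1 and Zbp1. Members share regulators and are not independent of each other, so their common sign is a description of these mice.

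Oasl2 had log2 levels of 6.05, 6.43 and 6.81 (lowest, median and highest of 6) with quercetin, against 6.39, 6.97 and 7.05 on the Western-style diet. The ranges overlapped, and the difference was -0.47 (95% interval -0.74 to -0.20; unadjusted p = 0.0019, adjusted p = 1.00, limma). Rtp4 had 7.88, 8.06 and 8.46 with quercetin, against 8.31, 8.38 and 8.70 on the Western-style diet. Its difference was -0.30 (95% interval -0.51 to -0.09; unadjusted p = 0.00751, adjusted p = 1.00, limma). Of the 6 mice given quercetin, 5 lay below the lowest Western mouse in this gene.

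Ifit3 had 6.84, 7.09 and 7.27 with quercetin, against 6.95, 7.49 and 7.61 on the Western-style diet, a difference of -0.31 (95% interval -0.56 to -0.07). Ifit1 had 6.31, 6.48 and 6.57 with quercetin, against 6.29, 6.92 and 7.37 on the Western-style diet, a difference of -0.37 (95% interval -0.70 to -0.05). For Ifit1 the mice given quercetin were tightly grouped and the Western mice were spread around and above them. Zbp1, which can start necroptosis, had 5.39, 5.54 and 5.64 with quercetin, against 5.51, 5.85 and 6.21 on the Western-style diet. Its difference was -0.33 (95% interval -0.63 to -0.02). All of these had an adjusted p of 1.00.

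The small shift covered every role. The medians of the log2 differences were -0.31 for the 3 IFIT genes, -0.21 for the 5 other antiviral effectors, -0.18 for the 6 sensors, -0.15 for the 3 transcription factors, -0.15 for the 5 oligoadenylate synthetases, -0.13 for the 4 interferon-gamma-inducible GTPases and -0.07 for the 3 PARP genes, which encode ADP-ribosyltransferases. Of 20 further probe sets of 15 members that were not dim, 14 had a lower mean with quercetin, and the other 6, of Ifi35, Rsad2, Cmpk2 and Eif2ak2, did not. Since the Western mice enter both this comparison and the one with the control diet, the opposite signs of the differences in the 2 comparisons are not independent.

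**Figure D3:**
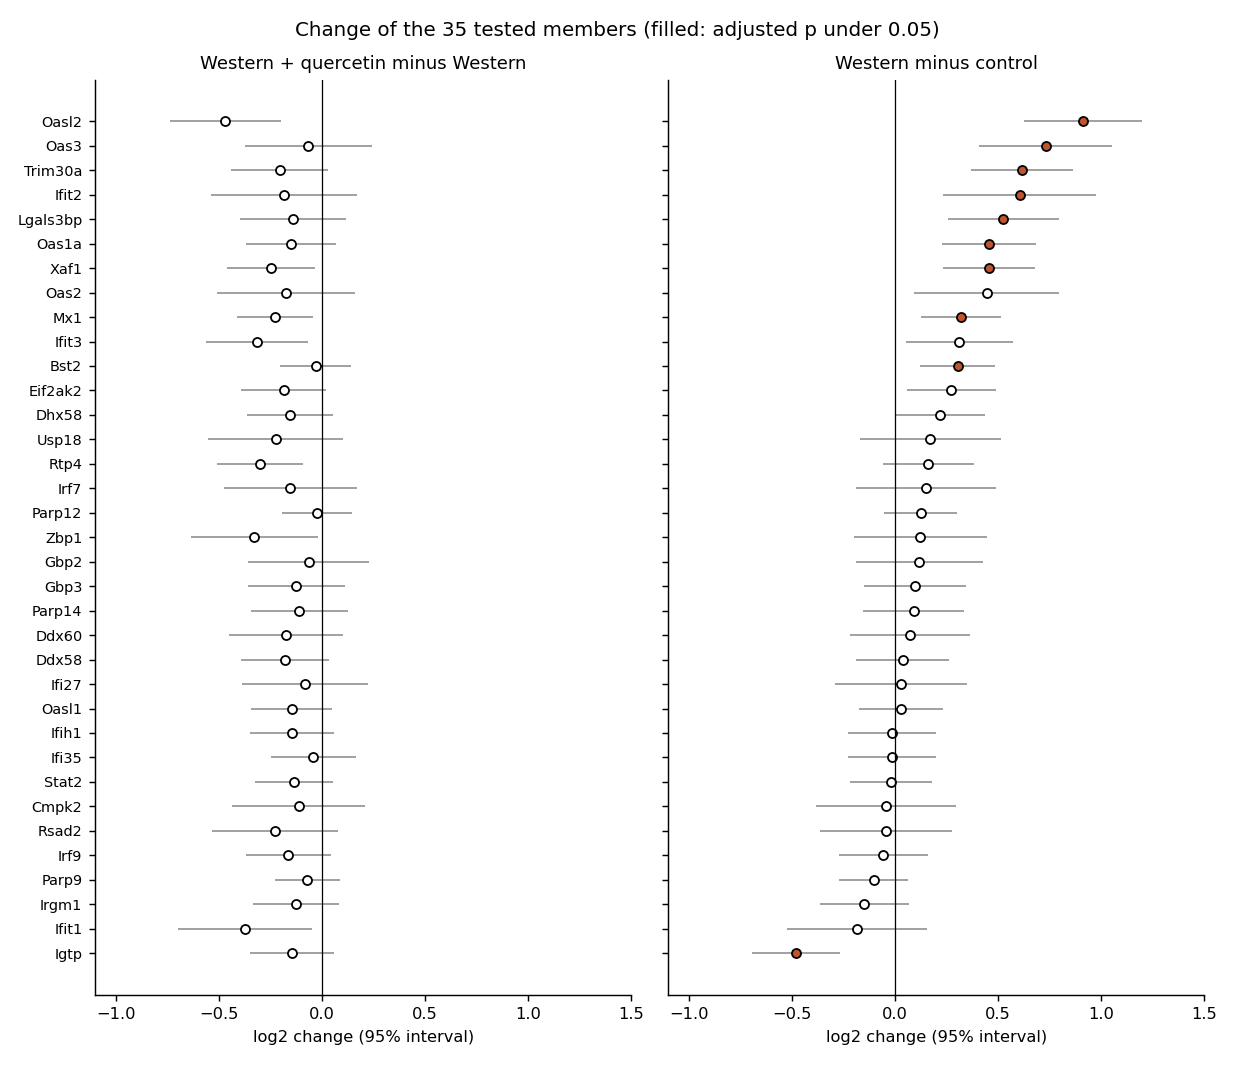
Log2 differences of the 35 tested members, ordered by the Western minus control difference, for quercetin with the Western-style diet minus that diet alone (left) and for Western minus control livers (right). Points are estimates, lines are 95% intervals, and filled points passed an adjusted p of 0.05 (limma). All 35 differences for quercetin lie below 0, from -0.47 to -0.02, with no filled point, while 9 members lie to the right and 1 to the left among the filled points of Western against control livers.

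The shift can be read mouse by mouse. For each mouse, the median over the 35 members of the deviation from the control mean was 0.079, 0.153, -0.024, -0.074, -0.093 and -0.111 in quercetin mice 1 to 6. It was 0.214, -0.013, 0.106, 0.147, 0.205 and 0.286 in Western mice 1 to 6. In control mice 1, 2, 3, 4-5 and 6 it was -0.065, -0.161, 0.113, 0.057 and 0.020. Quercetin mice 4, 5 and 6 were low and Western mice 4, 5 and 6 were high, whereas quercetin and Western mice 1 to 3 overlapped. In quercetin mice 4, 5 and 6, 32, 33 and 34 of the 35 members lay below the Western mean, against 26, 20 and 27 in quercetin mice 1, 2 and 3. The count was 16, 28, 20, 17, 8 and 6 in Western mice 1 to 6. Of all genes, 49.9%, 50.1% and 51.9% lay below the Western mean in quercetin mice 4, 5 and 6. In quercetin mice 1, 2 and 3 the shares were 49.3%, 49.0% and 51.1%.

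**Figure D4:**
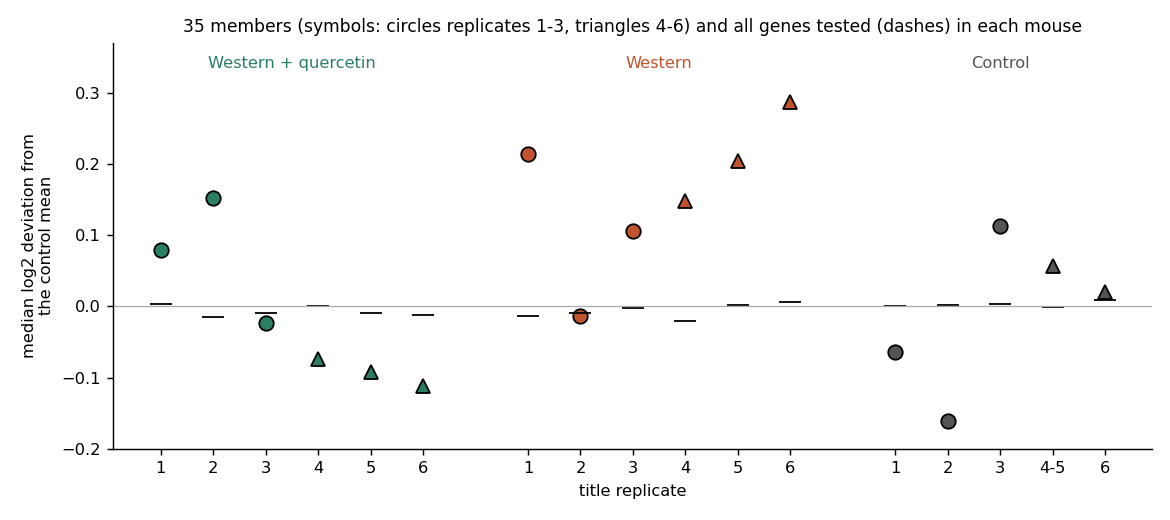
Median log2 deviation of the 35 members from the control mean in each mouse (symbols, circles for title numbers 1-3 and triangles for 4-6), with the median of all 13645 genes as dashes. The triangles of the mice given quercetin lie from -0.111 to -0.074 and those of the Western mice from 0.147 to 0.286, while the dashes stay near 0 in all mice.

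Within title numbers 4-6, where 3 mice given quercetin were set against 3 Western mice, no member passed the test, nor did any gene (0%). All 35 members again had a lower mean with quercetin (52.4% of all genes), and the median log2 difference was -0.32, against -0.0089 over all genes. In 26 of 35 members (74.3%, against 7.58% of all genes) all 3 mice given quercetin lay below all 3 Western mice. At an unadjusted p under 0.05, 15 members were lower (42.9%, against 3.28% of all genes).

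Oasl2 had log2 levels of 6.29, 6.36 and 6.05 in quercetin mice 4 to 6, against 6.99, 7.04 and 6.96 in Western mice 4 to 6. The difference was -0.76 (95% interval -1.11 to -0.42; unadjusted p = 0.000293, adjusted p = 0.433, limma), a 1.70-fold lower level. Usp18 had 7.12, 7.07 and 7.12 in quercetin mice 4 to 6, against 7.50, 7.70 and 8.02 in Western mice 4 to 6. In both genes the groups stood well apart, and the difference of Usp18 was -0.64 (95% interval -0.97 to -0.31; adjusted p = 0.433, limma). Ifit1 had 6.46, 6.31 and 6.48 in quercetin mice 4 to 6, against 6.90, 6.98 and 7.37 in Western mice 4 to 6, a difference of -0.67 (95% interval -1.02 to -0.32; adjusted p = 0.433, limma). Rtp4 had 8.05, 8.06 and 7.88 in quercetin mice 4 to 6, against 8.37, 8.41 and 8.70 in Western mice 4 to 6, a difference of -0.49 (95% interval -0.77 to -0.22; adjusted p = 0.472, limma).

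No sensor or transcription factor was called in this subset, and 3 of them are shown as examples. Ddx58 had 7.49, 7.46 and 7.18 in quercetin mice 4 to 6, against 7.73, 7.78 and 7.79 in Western mice 4 to 6. Irf7 had 8.11, 8.11 and 7.95 in quercetin mice 4 to 6, against 8.35, 8.54 and 8.55 in Western mice 4 to 6. Stat2 had 6.98, 7.11 and 6.90 in quercetin mice 4 to 6, against 7.22, 7.22 and 7.15 in Western mice 4 to 6. For all 3 genes the groups did not overlap. The 9 members with overlapping mice included the sensor Ddx60, Oas3, Bst2, Igtp, Irgm1 and Parp12, an ADP-ribosyltransferase that blocks viral translation.

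Within title numbers 1-3 the picture was flat. No member or gene passed the test (0%), 20 of 35 members had a lower mean with quercetin (49.8% of all genes), and no member reached an unadjusted p under 0.05 (3.74% of all genes). The median difference was -0.038, with a range from -0.19 for Zbp1 to 0.24 for Gbp2. Without Western mouse 1 the median was 0.02 with 15 members below 0, without Western mouse 2 it was -0.07, and on unscaled values it was 0.005, so its sign was not stable. Usp18 had 7.41, 7.53 and 7.35 in quercetin mice 1 to 3, against 7.54, 6.95 and 7.24 in Western mice 1 to 3, a difference of 0.19 (95% interval -0.14 to 0.53). Oasl2 had 6.50, 6.81 and 6.54 in quercetin mice 1 to 3, against 7.05, 6.39 and 6.93 in Western mice 1 to 3. Gbp2 had 6.65, 7.13 and 6.62 in quercetin mice 1 to 3, against 6.86, 6.23 and 6.59 in Western mice 1 to 3. Western mouse 2 was the lowest Western mouse in all 3 genes.

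The difference between the 2 sets was tested itself, as the quercetin difference in numbers 1-3 minus that in 4-6. No member or gene passed (0%), and all 35 estimates were above 0 (52.2% of all genes), with a median of 0.29. Without Western mouse 2 the median was 0.19 and 2 members lay below 0, and with a pseudocount of 64 it was 0.19. At an unadjusted p under 0.05, 8 members were higher (22.9%, against 2.94% of all genes). Usp18 had the smallest p, with an estimate of 0.83 (95% interval 0.36 to 1.30; unadjusted p = 0.00192, adjusted p = 0.639, limma). Parp14 had an estimate of 0.55 (adjusted p = 0.806, limma), with 7.14, 7.17 and 7.29 in quercetin mice 1 to 3, against 7.07, 6.87 and 7.17 in Western mice 1 to 3, and 7.01, 6.56 and 6.90 in quercetin mice 4 to 6, against 7.16, 7.36 and 7.10 in Western mice 4 to 6. In that gene the order of the diets differed between the sets. Lgals3bp had an estimate of 0.57 (adjusted p = 0.808, limma), with 9.32, 9.58 and 9.13 in quercetin mice 4 to 6, against 9.86, 9.78 and 9.68 in Western mice 4 to 6. Ddx58 had an estimate of 0.42 (adjusted p = 0.895, limma). A difference between the sets was therefore not established for any single member.

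**Figure D5:**
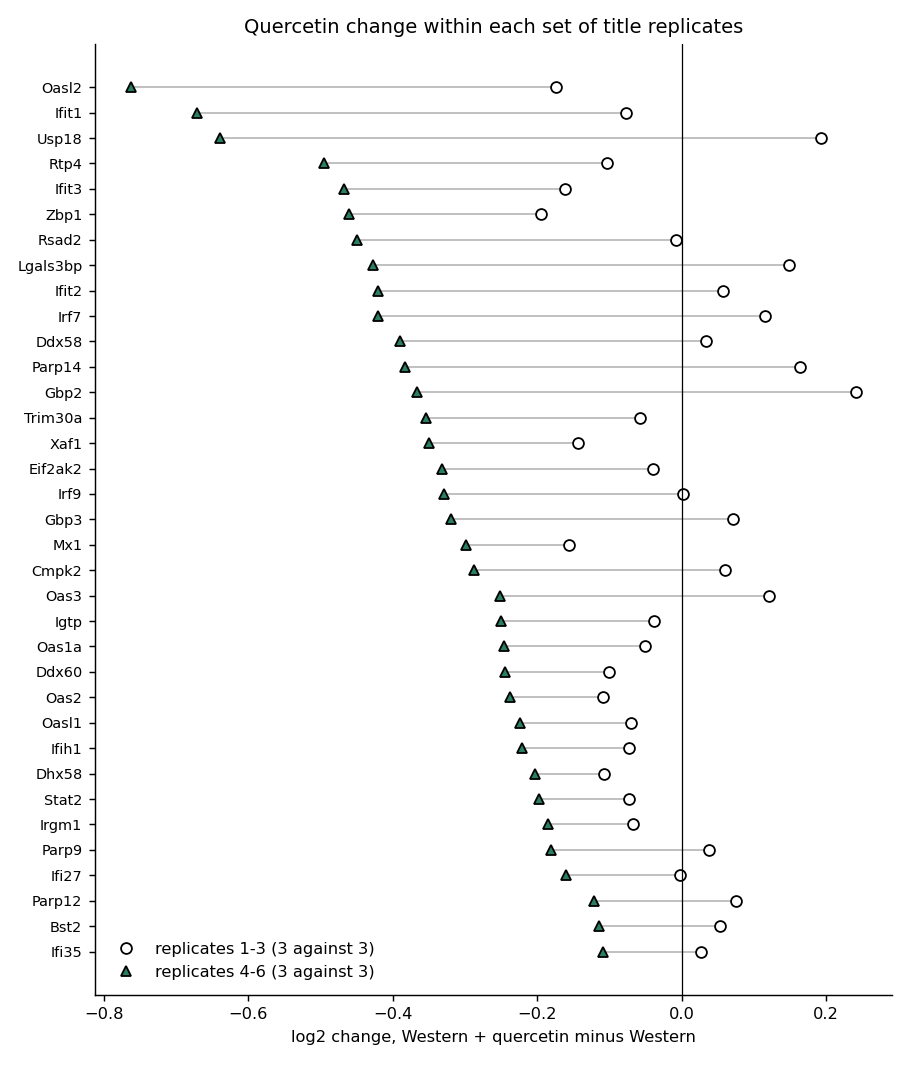
Quercetin minus Western log2 difference of each of the 35 tested members within title numbers 4-6 (triangles) and 1-3 (circles). Triangles run from -0.76 to -0.11, all below 0, while circles run from -0.19 to 0.24, on both sides of 0.

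Both diet groups contributed to the contrast between the sets. In quercetin mice the level in numbers 1-3 minus that in 4-6 had a median over members of 0.15, in Western mice of -0.16 and in control mice of -0.039. Within 4-6, 15 of 19 macrophage and Kupffer cell markers had a lower mean with quercetin (median -0.19), as had 7 of 8 stellate cell markers (median -0.33). Within 1-3, 4 of 19 macrophage and Kupffer cell markers had a lower mean with quercetin (median 0.16), as had 1 of 8 stellate cell markers (median 0.08). For either list the median per-gene difference thus had opposite signs in the sets, and the difference between sets had a median of 0.42. No marker of either list was called in these comparisons. The median summed intensity of the macrophage list was 8820 in quercetin mice 4 to 6 and 10797 in Western mice 4 to 6. In quercetin mice 1 to 3 it was 10426, and in Western mice 1 to 3 it was 11365. That of the stellate list was 2289 against 3030 in 4-6, and 2997 against 3012 in 1-3. Unlike the median per-gene difference, the median sum was thus lower with quercetin in both sets. The actin ratio had a median of 0.586 in quercetin mice 4 to 6 and 0.664 in Western mice 4 to 6. With it as a covariate all 35 members had a lower mean with quercetin within 4-6. The median was -0.29 in that fit and -0.32 without the covariate. The part of the marker genes and of RNA integrity in the difference was not tested.

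Mice given quercetin were also compared with control mice, from which they differed in both the Western-style diet and quercetin. Of the 35 members 3 passed (8.57%, against 5.41% of all genes). Oas3 had 5.21, 5.37 and 5.82 with quercetin, against 4.47, 4.52, 4.85, 4.89 and 5.24 in control livers, and was 1.59-fold higher (log2 change 0.67 ± 0.15, SE; adjusted p = 0.0156, limma). Trim30a had 7.15, 7.31 and 7.75 with quercetin, against 6.78 to 7.16 in control livers, and was 1.33-fold higher (adjusted p = 0.0487, limma). That call is close to the threshold, and leaving out quercetin mouse 2 ended it (adjusted p = 0.103, limma), as did 12 of the other single samples left out.

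Igtp had 8.16, 8.30 and 8.38 with quercetin, against 8.73 to 9.17 in control livers. The groups did not overlap, and the level was 1.54-fold lower (log2 change -0.63 ± 0.10, SE; adjusted p = 0.00175, limma). Ifit1 had 6.31, 6.48 and 6.57 with quercetin, against 6.59 to 7.42 in control livers. With Igtp it was 1 of 2 members (5.71%, against 2.1% of all genes) with every mouse given quercetin below every control mouse, and it had a log2 difference of -0.56 that did not pass (adjusted p = 0.0516, limma). Over all 35 members the median difference was -0.029, a sign that turned on the values as deposited (0.25, with the median of all genes at 0.22) and with array medians centred (0.077). The actin ratio was 0.55 ± 0.08 (SD, n = 6) with quercetin and 0.69 ± 0.06 (SD, n = 5) in control livers, and with it as a covariate Igtp alone of the 35 kept its call, with a median over members of 0.02 and 155 genes called in all, against 738 without it.

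The Western-style diet was also set against the control diet within each set, where the control group had 3 samples in 1-3 and 2 in 4-6. In 1-3, 2 of 35 members were higher, Oas3 and Oasl2 (1.67% of all genes). In 4-6, 1 member was higher, Oasl2, with a log2 difference of 0.98 (adjusted p = 0.0167, limma; 1.40% of all genes). Oasl2 is thus the member whose higher level on the Western-style diet passed in both sets.

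The pathway above and around these genes was read from 6 further lists. Beside the counts below, 5.49% of all genes were called higher on the Western-style diet and 3.16% lower. Of 10 interferon genes, 6 had a probe set and 4 of those were dim, including Ifnb1, the first-wave type I interferon, and Ifng, the type II interferon. Neither of the 2 tested, Ifna1 and Ifna2, had a called change. Of 6 receptor chains, 1 rose on the Western-style diet. It was Il10rb, the chain shared by the receptors for type III interferon and interleukin-10, with a log2 difference of 0.63 (adjusted p = 0.0196, limma). Of 9 kinases and transcription factors, Irf8, a factor of the myeloid lineage, was higher (0.42, adjusted p = 0.0387, limma) and Irf3, which turns on interferon genes after sensing, was lower (-0.39, adjusted p = 0.0304, limma).

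None of 9 sensing receptors and adaptors was called, although Tlr3, the endosomal sensor of double-stranded RNA, had a log2 difference of 0.42 (adjusted p = 0.0697, limma). Of 5 negative regulators, Ptpn6, a phosphatase of blood cells, was higher (0.62, adjusted p = 0.0331, limma). Of 21 further interferon-induced genes, 3 were higher and none was lower, against 5.49% and 3.16% of all genes. They were Slfn2, a gene of lymphoid and myeloid cells (0.77, adjusted p = 0.0477, limma), Ifi204, a DNA-binding protein (0.64, adjusted p = 0.0492, limma), and Tor3a, a torsin ATPase (0.39, adjusted p = 0.0448, limma). With quercetin against the Western-style diet no gene of the 6 lists was called. Of the 21 further interferon-induced genes, 17 had a lower mean with quercetin (median -0.07; 52.3% of all genes). Within title numbers 4-6 the count was 19 (median -0.18; 52.4% of all genes), and within 1-3 it was 7 (median 0.08; 49.8% of all genes). Among the adaptors, Ticam1, which carries the signal of Tlr3, had a difference of -0.27 (95% interval -0.48 to -0.06; unadjusted p = 0.0129, adjusted p = 1.00, limma).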

How the data were processed

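Liver RNA was measured on 18 arrays, taken as 1 mouse each apart from control arrays 4 and 5, whose linear intensities were nearly identical. The authors deposited a table of linear intensity values, 1 per probe set, and how these were derived from the scans, and any normalization, is not given in the sources used here. Array medians and trimmed means differed between arrays. From the deposited intensity values, 64 control probe sets were removed, and log2(value + 16) of the other 45037 was quantile normalized. Control arrays 4 and 5 were averaged into 1 sample, leaving 17. The array's annotation pairs 34945 probe sets with 1 symbol, 932 with several and 9160 with none. The symbols of all 36 members found matched the RefSeq table by gene identifier. The brightest probe set stood for each gene, and genes whose mean lay below the 25th percentile were left out as dim.

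A linear model with 1 mean per diet, or per diet and title set for the comparisons within sets, was fitted to all genes with limma 3.58.1 in R 4.3.3, with two-sided moderated tests and Benjamini-Hochberg adjustment over the 13645 genes. The fit was tested on simulated data first. The 95% interval of a member's difference had a median half-width of 0.25 against the control diet, 0.23 between the other diets and 0.31 between quercetin and Western mice within a set. The number of arrays limits this precision. Plots used matplotlib 3.10.9 (Python 3.11.15).

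The members and gene lists were chosen with earlier results of these data known, so no p for the list is given. Full values are given for members called over all mice, and for most of those among the 4 with the smallest p or the 2 with the largest change either way. Those not given in full for every such comparison include Mx1, Parp12, Ifi35 and Dhx58. Further members shown to describe a role were chosen after their values were seen. Same-numbered mice did not deviate together in every pair (correlations from -0.26 to 0.32 over 16 pairs), so the numbers were not taken to pair mice. The alternatives were other scalings, pseudocounts, dim filters, probe set rules, sample sets and blocks, each sample left out, and the actin ratio as a covariate, the last added after the data were seen.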

Additional observations from a re-analysis of the deposited data

Results flagged for a closer look

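In 8 of 105 combinations of a tested member and a diet group, 1 mouse stood apart from the rest of its group, its gap to the nearest mouse being a large share of the group's range (above Dixon's 95% limit). Chance gives about 1 in 20 such combinations. Western mouse 2 was lowest for Oasl2 (log2 6.39, gap 0.809 of the range), Ddx58 (7.34, gap 0.804) and Lgals3bp (9.34, gap 0.655), and it had the lowest median over members of the Western mice. Western mouse 6 was highest for Rtp4 (8.70, gap 0.751) and Irgm1 (8.45, gap 0.694). Western mouse 3 was lowest for Irf9 (gap 0.741). Quercetin mouse 2 was highest for Oas1a (7.59, gap 0.741) and Trim30a (7.75, gap 0.639). The cause of these gaps was not tested.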

How the results depend on the processing

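Between Western and control livers, 10 members were called, 16 on the values as deposited and 1 with the actin ratio as a covariate, a setting added after the data were seen. Calls over all genes were 1180, with 3725 on the values as deposited and 223 with the actin ratio. The median difference of members was 0.12, with 0.41 for unscaled values, 0.26 with array medians centred and 0.16 with the actin ratio. Leaving out 1 sample gave 7 to 12 called members, 748 to 1394 calls over all genes and medians of 0.06 to 0.16. For quercetin against the control diet, 3 members were called, 11 on the values as deposited and 1 with the actin ratio. Calls over all genes were 738, with 3255 on the values as deposited and 155 with the actin ratio. With a pseudocount of 64, 5 members and 869 genes were called. Without the genes below the 50th percentile these counts were 5 and 880, and with control arrays 4 and 5 as 2 samples 5 and 1009. The median was -0.029, with 0.25 for unscaled values and 0.077 with array medians centred. Leaving out 1 sample gave 2 to 5 called members, the 5 without quercetin mouse 6, and medians of -0.11 to 0.01. Calls over all genes then ran from 460 to 949, the 949 without quercetin mouse 6. Within title numbers 4-6 the quercetin median was -0.21 with a pseudocount of 64, against -0.32, and leaving out 1 sample gave -0.34 to -0.26. Within 1-3 the median was -0.07 to 0.02 with 1 sample left out, and for the difference between sets it was 0.19 to 0.35, the lowest without Western mouse 2, and 0.19 with a pseudocount of 64. For quercetin against the Western-style diet, over all mice, within either set and for the difference between sets, no alternative called a member. All tested members stayed lower with quercetin over all mice on every alternative other than averaging each gene's probe sets and dropping cross-hybridising probe sets (34 of 35 each) and leaving out 1 sample (32 to 35 of 35).

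Taking the replicate number as a block gave 11 called members for the Western-style diet (1143 of all genes). It gave 2 for quercetin against the control diet (717 of all genes) and 0 for quercetin against the Western-style diet (0 of all genes). Deviations from the group mean correlated between same-numbered mice of different diets with a median of 0.13. The median was 0.07 between other numbers of the same set and -0.11 between sets. The numbers were not taken as pairs, and the fit over all mice had no term for the set. With the set as a block, 11 members were called for the Western-style diet (1524 of all genes, against 1180). In control mice, 1-3 against 4-6 called no member and 2.12% of all genes. Oasl2 kept its call for the Western-style diet in 30 of 30 alternatives and Igtp kept its call for quercetin against the control diet in 30 of 30. Ifit2, Mx1 and Bst2 lost theirs in 10, 11 and 10 alternatives, and Xaf1 lost its call with the mean of its probe sets (adjusted p = 0.197, limma; range over alternatives 0.000469 to 0.197). The causes were not tested. Dim genes such as Mx2 and the interferon genes are limited by signal over background.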
